A study of Mus musculus with 18 samples.

Results

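Cells take up cholesterol mostly inside lipoproteins and free it in late endosomes and lysosomes. NPC2, a soluble lysosomal protein, binds the freed sterol and hands it to NPC1, a membrane protein that lets it leave the lysosome. Carriers at membrane contact sites then move it onward: STARD3 on late endosomes, GRAMD1A (Aster-A) in the endoplasmic reticulum, and the oxysterol-binding proteins, among which OSBP trades sterol for the phospholipid PI4P at the Golgi. Macrophages handle large loads of lipoprotein cholesterol, and this machinery decides where that cholesterol goes. The 10 genes described here are Npc1, Npc2, Stard3, Gramd1a, Osbp, Osbp2, Osbpl3, Osbpl8, Osbpl9 and Osbpl11, chosen by symbol from the 21831 named genes of the deposited table. All 10 passed the filter on low counts, as did 13409 genes in all.

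RNA was sequenced from peritoneal macrophages of 6-week-old C57BL/6 mice, drawn into the cavity with 1 mL of 3% thioglycollate 3 days earlier and left to attach in culture for 4 h. Treatment for 12 h was with 20 µM PCN (pregnenolone 16α-carbonitrile, which activates PXR, a nuclear receptor for foreign compounds, in mice) or the vehicle DMSO. All groups shared a further genetic alteration. On that background the mice were either PXRΔMye, with PXR deleted in myeloid cells (called dMye), or PXRF/F, with floxed PXR alleles (called FF). The labels do not name the promoter that drove the deletion. The 18 libraries formed 4 groups: dMye_PCN (n = 6), dMye_DMSO (n = 6), FF_PCN (n = 3) and FF_DMSO (n = 3). Whether the libraries within a group are separate animals, cultures or repeats is not stated, so the p-values reflect a spread that may be technical. Replicate numbers only name a library.

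Library totals ran from 21993697 to 30228017 rounded counts. Levels are given as CPM, a gene's count set against its library's total. The 10 macrophage markers added up to 19500 to 24200 CPM in every library. T cell, neutrophil, and eosinophil and mast cell markers added up to at most 39.9 CPM a list. B cell markers reached 117 CPM (in FF_DMSO), and mesothelial and fibroblast markers 826 CPM (in dMye_DMSO). Nr1i2, which encodes PXR, had 3 counts over the dMye_PCN libraries, 2 over dMye_DMSO, 1 over FF_PCN and 2 over FF_DMSO, so its deletion could not be checked. The 4 Y-linked genes summed to at most 1.49 CPM in the dMye libraries, against 113 to 137 CPM in the FF libraries. Sex therefore followed genotype, and the effects of genotype and sex cannot be told apart.

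Levels were first set in order per length, as CPM per kb of merged exons, averaged over the 4 group means. Npc2 stood highest, at 207 CPM per kb (range over the 18 libraries 174 to 255), followed by Osbpl8 at 131 (92.3 to 154) and Npc1 at 119 (85.1 to 143). The next 4 were Osbpl9 at 31.0, Osbp at 21.8, Stard3 at 17.5 and Osbpl11 at 16.1 CPM per kb. Osbpl3 (3.26), Gramd1a (3.07) and Osbp2 (1.08) were the lowest. The ranges of the neighbours Osbpl8 and Npc1, Osbp and Stard3, Stard3 and Osbpl11, and Osbpl3 and Gramd1a overlapped. With the longest annotated transcript as the length, Npc1 (235 CPM per kb) stood above Osbpl8 (171), and Stard3 (28.7) above Osbp (21.8). Osbpl8, which encodes ORP8, a tail-anchored protein of the endoplasmic reticulum that exchanges phosphatidylserine for PI4P, held 56.6% of the summed level per kb of the 12 genes of the oxysterol-binding protein family (51.8% with the longest transcript).

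**Figure D1:**
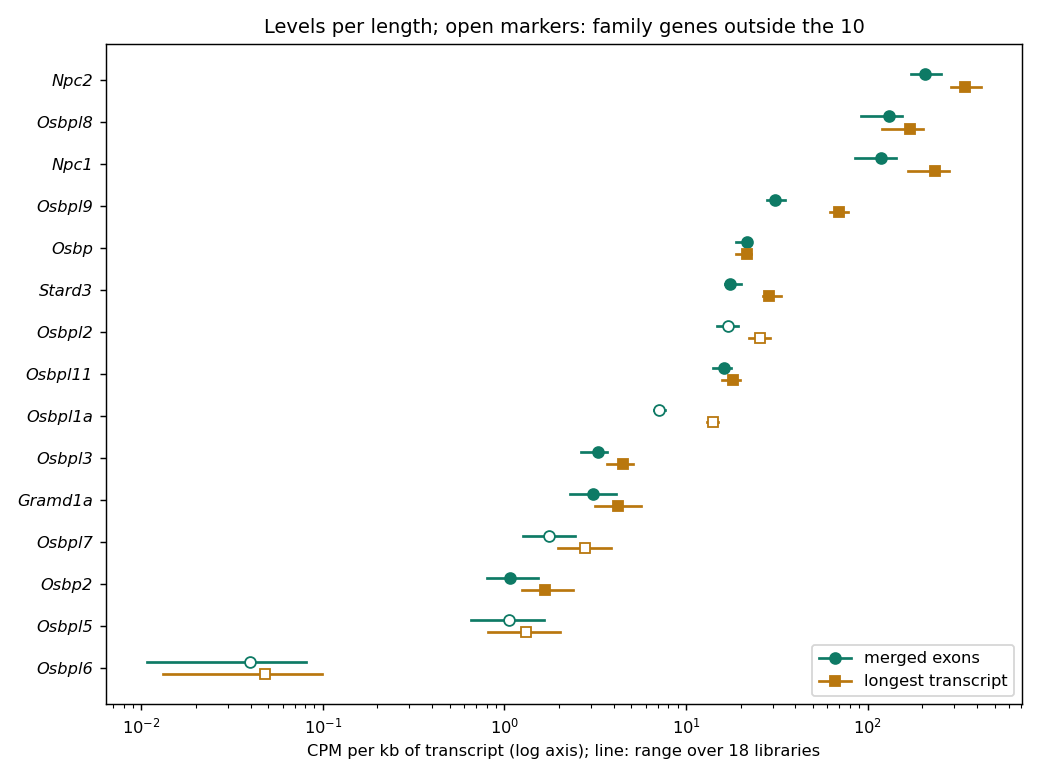
Mean level per length of the 10 genes (filled) and of 5 other genes of the oxysterol-binding protein family (open), in CPM per kb on a log axis, with circles for merged exons, squares for the longest transcript and lines for the range over 18 libraries. Osbpl10, at 0 in at least 1 library, is not drawn, and Npc2, Osbpl8 and Npc1 lie above all the others by both lengths.

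The promoters of Osbp2 and Osbpl8 are shown because they alone among the windows of these genes held the palindrome TCACGTGA, the core of the CLEAR motif known from genes of lysosomal function. RefSeq windows on GRCm38.p6 (250 bases before to 50 after a start) were given for 9 of the 10 genes, all but Npc1, and made up 12 windows. Each line gives the stretch before the annotated gene start, 5′ to 3′ on the gene's strand, with TCACGTGA in capitals: chr11:3863904-3864153 on the minus strand for Osbp2 and chr10:111164552-111164751 on the plus strand for Osbpl8.
Osbp2: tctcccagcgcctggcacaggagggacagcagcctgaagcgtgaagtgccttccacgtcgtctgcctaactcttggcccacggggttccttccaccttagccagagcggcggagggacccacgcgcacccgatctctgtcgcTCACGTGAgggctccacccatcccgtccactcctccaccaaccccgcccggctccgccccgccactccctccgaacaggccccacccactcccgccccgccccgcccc
Osbpl8: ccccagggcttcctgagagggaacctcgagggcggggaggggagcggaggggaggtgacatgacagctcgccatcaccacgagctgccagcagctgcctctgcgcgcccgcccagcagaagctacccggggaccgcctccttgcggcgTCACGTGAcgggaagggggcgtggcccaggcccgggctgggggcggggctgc
The palindrome lies 108 bases before the Osbp2 start shown and 52 bases before the Osbpl8 start. The windows of the other Osbp2 starts did not hold it, and which start these cells use was not tested. The palindrome was in 2 of the 12 windows, and in 0.974% of the 32851 promoter windows of the same length in the RefSeq table. The shorter E-box CACGTG, which lies inside it, was in the same 2 windows and in 7.15% of all. On both strands, the half-site AGGTCA was in 0 of the 12 windows (16.3% of all) and the half-site AGTTCA in 1, at the third Osbp2 start (14.0% of all). A direct repeat of AGGTCA spaced by 4 bases (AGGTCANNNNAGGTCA, 0.0152% of all windows), a direct repeat of AGTTCA spaced by 3 bases (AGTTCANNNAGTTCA, 0% of all), its everted repeat spaced by 6 (TGAACTNNNNNNAGTTCA, 0.00609%) and the sterol response element core TCACCCCAC (0.551%) were in 0 of the 12. These matches describe letters in these windows and say nothing of binding.

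PCN was compared with DMSO within each genotype first. Of the 10 genes, 2 rose and 0 fell with PCN in dMye cells, where 0.94% of all tested genes were called higher and 1.14% lower. In FF cells, 1 rose and 0 fell, where 6.82% of all tested genes were called higher and 6.98% lower. The gene called in both genotypes was Npc1, and Osbp2 was called in dMye cells. The median log2 fold change over the 10 genes was -0.02 in dMye cells and 0.03 in FF cells, beside -0.01 and 0.01 over all genes tested. Cell type markers moved beside the FF comparison: 6 of 10 macrophage markers and 4 of 8 B cell markers fell. Macrophage markers summed to 20400 to 21100 CPM in FF_PCN, against 23700 to 24200 CPM in FF_DMSO, and B cell markers to 93.9 to 106 CPM in FF_PCN, against 107 to 117 CPM in FF_DMSO, with 0 markers of either list at 0 counts. Neutrophil markers summed to 26.1 to 28.5 CPM in FF_PCN, against 36 to 39.9 CPM in FF_DMSO (1 of 5 tested fell, and Camp was at 0 counts in FF_DMSO), and mesothelial and fibroblast markers to 154 to 169 CPM in FF_PCN, against 190 to 192 CPM in FF_DMSO (1 of 11 fell). In dMye cells, 1 macrophage marker and 0 B cell markers fell (sums of 19500 to 20200 and 85.4 to 95.6 CPM in dMye_PCN, against 19800 to 21900 and 81.1 to 96.0 CPM in dMye_DMSO). The part of these markers in the values below was not tested, and in bulk samples fewer cells of a type cannot be told apart from less RNA per cell.

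**Figure D2:**
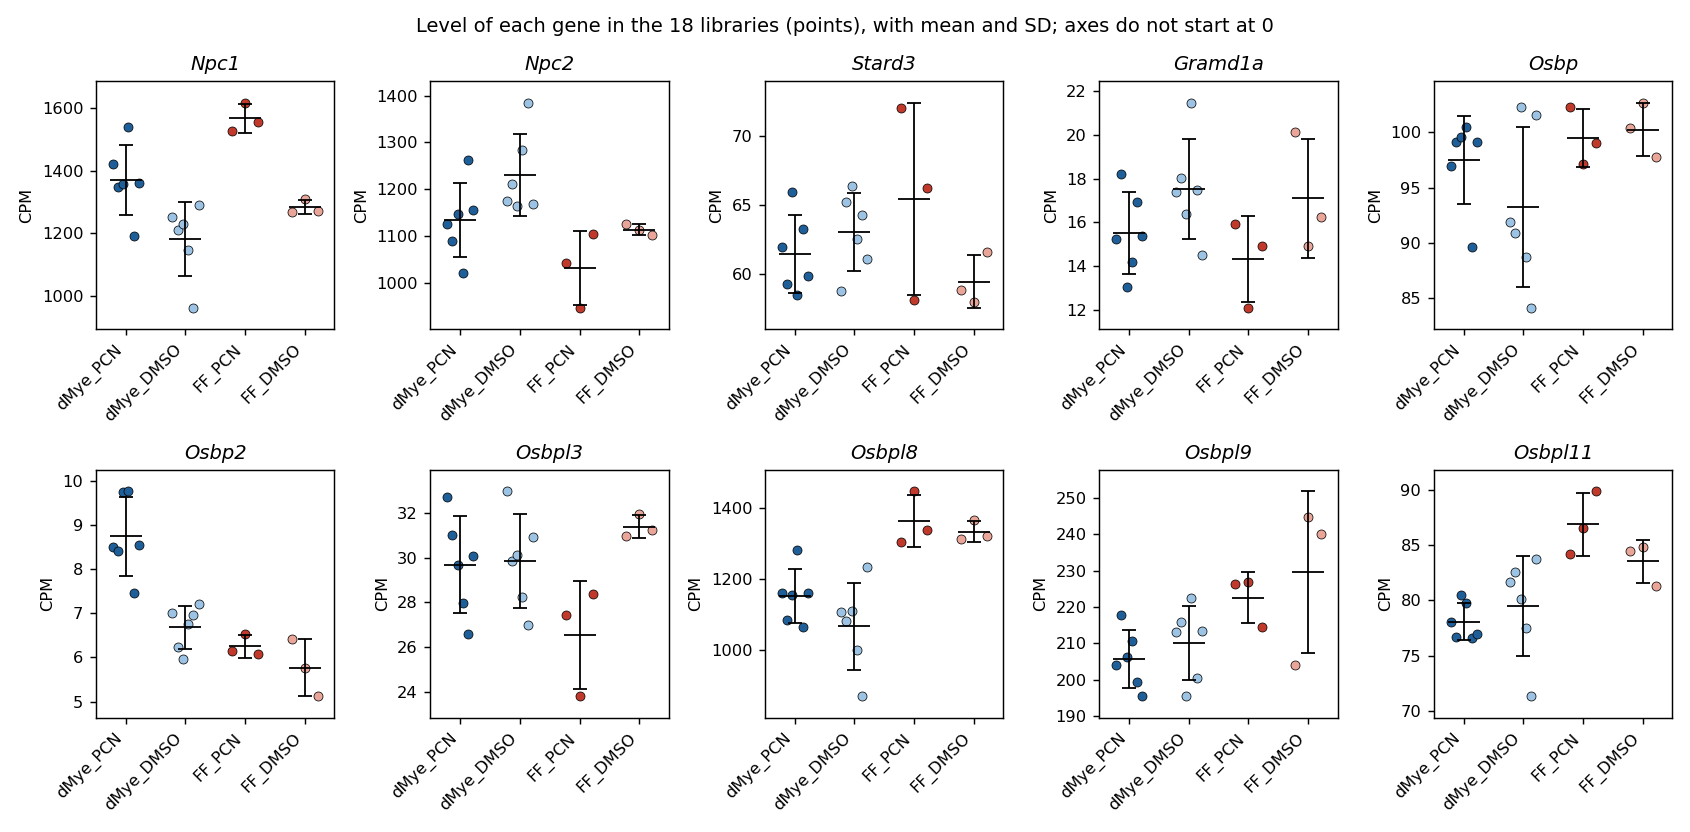
Level of each of the 10 genes in CPM in the 18 libraries (points), by group, with the mean and SD; the axes do not start at 0. Npc1 is higher in the FF_PCN libraries (1527 to 1617 CPM) than in any FF_DMSO library (1268 to 1308 CPM), and Osbp2 is higher in every dMye_PCN library (7.45 to 9.76 CPM) than in any dMye_DMSO library (5.96 to 7.20 CPM).

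Npc1 (chr18:12189692-12236400, GRCm38, minus strand), the lysosomal sterol exporter, ranged from 1192 to 1538 CPM in dMye_PCN (median 1358) and from 963 to 1291 CPM in dMye_DMSO (median 1221). The groups overlapped, through dMye_PCN 5, the lowest PCN library. The fitted log2 fold change was 0.21 (SE 0.054, 1.16-fold, edgeR adjusted p = 0.039). In FF cells it stood at 1527, 1617 and 1555 CPM in FF_PCN, against 1268, 1308 and 1271 CPM in FF_DMSO. All 3 PCN libraries lay above all 3 DMSO libraries, with a log2 fold change of 0.31 (SE 0.076, 1.24-fold, 95% interval 1.11 to 1.38, edgeR adjusted p = 0.0074). The difference between the effects, dMye minus FF, was -0.10 (SE 0.093, 95% interval -0.29 to 0.09, edgeR adjusted p = 0.74), so a difference was not shown, nor were the effects shown to be alike. In dMye cells the call was lost in 15 of 18 fits that left out 1 library in turn (adjusted p from 0.050 to 0.10), and was kept without dMye_DMSO 1, dMye_DMSO 6 or dMye_PCN 5. The lost ones include all 6 fits without an FF library, in which the dMye libraries compared were the same and the log2 fold change stayed at 0.21. In FF cells it was lost without FF_DMSO 1 (adjusted p = 0.054), FF_DMSO 3 (0.053) or FF_PCN 2 (0.059). About 5.31% of the Npc1 exon bases overlap genes on the opposite strand, whose reads could not be told apart.

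Npc2, which encodes the soluble partner of NPC1, was not called in either genotype. It ranged from 1022 to 1262 CPM in dMye_PCN (median 1138) and from 1165 to 1385 CPM in dMye_DMSO (median 1193), with a log2 fold change of -0.12 (SE 0.057, edgeR adjusted p = 0.31). The FF_PCN libraries spanned 948 to 1104 CPM and the FF_DMSO libraries 1102 to 1126 CPM (log2 fold change -0.09, SE 0.081, edgeR adjusted p = 0.56). Within a library, the ratio of Npc1 to Npc2 CPM was 0.945 to 1.51 in dMye_PCN, against 0.695 to 1.10 in dMye_DMSO. It was 1.41 to 1.71 in FF_PCN, against 1.13 to 1.18 in FF_DMSO. The ratio separated the FF groups and overlapped between the dMye groups. Both genes also followed a property of each whole library, described below, and its part in the ratio was not tested.

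Osbp2 (chr11:3703731-3863903, GRCm38, minus strand), whose product ORP4 binds sterols and PI4P, had the largest change of the 10 genes in dMye cells and the lowest level per length. It ranged from 7.45 to 9.76 CPM in dMye_PCN (median 8.53) and from 5.96 to 7.20 CPM in dMye_DMSO (median 6.86). The 6 PCN libraries lay above the 6 DMSO libraries, with a log2 fold change of 0.38 (SE 0.088, 1.31-fold, 95% interval 1.15 to 1.48, edgeR adjusted p = 0.023). In FF cells it stood at 6.14, 6.54 and 6.07 CPM in FF_PCN, against 6.43, 5.76 and 5.13 CPM in FF_DMSO. These libraries overlapped, and the log2 fold change of 0.14 (SE 0.128, edgeR adjusted p = 0.55) was not called. The difference between the effects, dMye minus FF, was 0.25 (SE 0.155, 95% interval -0.08 to 0.57, edgeR adjusted p = 0.55), so the call in 1 genotype does not show a difference between them. The counts behind these levels were 141 to 254 a library. The dMye call was lost without dMye_DMSO 2 (adjusted p = 0.058), dMye_DMSO 3 (0.055), dMye_PCN 3 (0.071) or dMye_PCN 4 (0.067).

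The remaining 7 genes were not called for PCN in either genotype. Osbpl3, whose product ORP3 works at contacts between the endoplasmic reticulum and the plasma membrane, came nearest. It stood at 27.4, 23.8 and 28.4 CPM in FF_PCN, against 31.0, 32.0 and 31.2 CPM in FF_DMSO. The FF groups did not overlap, but the log2 fold change of -0.22 (SE 0.079, edgeR adjusted p = 0.069) missed the threshold. It was called in 5 of the 30 alternatives, among them upper-quartile scaling (log2 fold change -0.25, adjusted p = 0.037) and DESeq2 (-0.23, 0.049). The effect in dMye cells was -0.01 (SE 0.056, edgeR adjusted p = 0.96). The difference between the effects, dMye minus FF, was 0.21 (SE 0.097, edgeR adjusted p = 0.36).

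Stard3, the sterol carrier of late endosomes, stood at 72.0, 58.1 and 66.2 CPM in FF_PCN, against 58.8, 57.9 and 61.6 CPM in FF_DMSO. One of the PCN libraries, FF_PCN 2, lay among the DMSO libraries. The log2 fold change was 0.16 in FF cells (SE 0.072, edgeR adjusted p = 0.15), without FF_PCN 2 it was 0.23 (edgeR adjusted p = 0.041), and without FF_PCN 1 it was 0.077 (edgeR adjusted p = 0.60). It was -0.04 in dMye cells (SE 0.051, edgeR adjusted p = 0.77). The difference between the effects, dMye minus FF, was -0.20 (SE 0.088, edgeR adjusted p = 0.33). Gramd1a, which carries accessible cholesterol inward from the plasma membrane, averaged 15.5 ± 1.87 CPM in dMye_PCN and 17.5 ± 2.30 CPM in dMye_DMSO (SD, n = 6 each), and 14.3 ± 1.97 CPM in FF_PCN and 17.1 ± 2.72 CPM in FF_DMSO (SD, n = 3 each). Its coefficients of variation, 12.1 to 15.9% by group, were wide beside its log2 fold changes of -0.18 (edgeR adjusted p = 0.43) and -0.23 (edgeR adjusted p = 0.34). About 8.07% of its exon bases overlap antisense genes.

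Osbp, the founding member of the family, showed log2 fold changes of 0.06 in dMye cells (edgeR adjusted p = 0.49) and 0.01 in FF cells (edgeR adjusted p = 0.93). Osbpl8, Osbpl9 and Osbpl11 lay between -0.03 and 0.11 in both genotypes. Osbpl8 was at 0.11 in dMye cells (SE 0.055, edgeR adjusted p = 0.34) and 0.06 in FF cells (SE 0.078, edgeR adjusted p = 0.72). Osbpl9, whose product ORP9 works between the endoplasmic reticulum and the Golgi, was at -0.03 and -0.02, and Osbpl11, whose product ORP11 pairs with ORP9, at -0.03 and 0.08. The 95% intervals for Osbp, Osbpl9 and Osbpl11 stayed within -0.16 and 0.19 in both genotypes. Over the 10 genes, 0 differed in their PCN effect between genotypes (dMye minus FF), where 0.746% of all tested genes were called higher and 0.671% lower; these differences ran from -0.20 to 0.25.

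**Figure D3:**
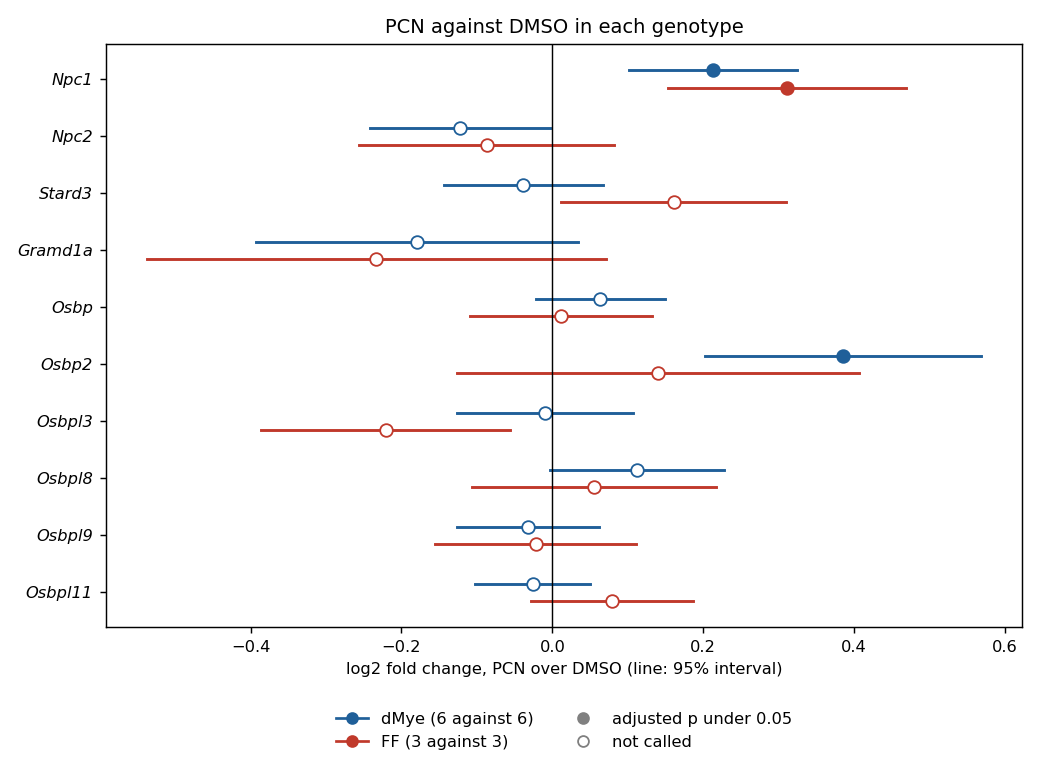
Log2 fold change of each gene for PCN over DMSO in dMye cells (blue, 6 against 6 libraries) and FF cells (red, 3 against 3), with 95% intervals as lines and filled points for an adjusted p under 0.05. Npc1 is filled in both genotypes (0.21 in dMye, 0.31 in FF), Osbp2 in dMye cells (0.38), and the intervals of both genotypes overlap for every gene. Such overlap is not a test of the difference.

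The 2 genotypes were then compared under each agent. Under PCN, 1 of the 10 genes was higher in dMye cells and 4 were lower, where 16.2% of all tested genes were called higher and 11.4% lower. Under DMSO, 0 were higher and 1 was lower, where 13.9% of all tested genes were called higher and 7.85% lower. The 10 genes had a median log2 fold change of -0.11 under PCN and -0.10 under DMSO, beside 0.00268 and 0.0213 over all genes tested. Beside these contrasts, all 11 mesothelial and fibroblast markers were called higher in dMye cells under both agents: they summed to 643 to 755 CPM in dMye_PCN, 642 to 826 in dMye_DMSO, 154 to 169 in FF_PCN and 190 to 192 in FF_DMSO, with 0 of them at 0 counts in any group. Of 7 markers of resident large peritoneal macrophages, 6 were higher in dMye cells under PCN and 5 under DMSO, with sums of 211 to 405 CPM in dMye_PCN, 205 to 360 in dMye_DMSO, 124 to 153 in FF_PCN and 131 to 156 in FF_DMSO. Of the 10 macrophage markers, 6 were higher and 1 lower in dMye cells under PCN, and 2 were higher and 2 lower under DMSO (sums given above). Of 8 B cell markers, 2 were lower under PCN and 6 under DMSO. Of 6 tested T cell markers, 1 was higher and 2 lower under PCN and 3 were lower under DMSO, with sums of 25.5 to 30.3 CPM in dMye_PCN against 30.8 to 33.9 in FF_PCN, and 23 to 30.9 in dMye_DMSO against 33.6 to 34.6 in FF_DMSO. Of 5 tested neutrophil markers, 1 was lower under PCN and 2 under DMSO, with sums of 16 to 19.7 CPM in dMye_PCN against 26.1 to 28.5 in FF_PCN, and 20 to 22.3 in dMye_DMSO against 36 to 39.9 in FF_DMSO. The part of these markers, and of sex, in the values below was not tested.

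Osbpl8 (chr10:111164752-111297249, GRCm38, plus strand) was lower in dMye cells under both agents. It ranged from 1065 to 1281 CPM in dMye_PCN (median 1157), against 1305, 1448 and 1339 CPM in FF_PCN. Under DMSO it ranged from 868 to 1233 CPM in dMye cells (median 1095), against 1314, 1367 and 1321 CPM in FF cells. No dMye library reached an FF library of the same agent. The log2 fold change was -0.30 under PCN (SE 0.067, 0.815-fold, edgeR adjusted p = 0.002) and -0.35 under DMSO (SE 0.067, 0.784-fold, edgeR adjusted p = 0.00044). Both calls held with each of the 18 libraries left out in turn, with adjusted p up to 0.029 under PCN and 0.0051 under DMSO.

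The other called genes were called under PCN. Osbp2 was higher, at 7.45 to 9.76 CPM in dMye_PCN against 6.07 to 6.54 CPM in FF_PCN, with no overlap (log2 fold change 0.43, SE 0.110, edgeR adjusted p = 0.0051); under DMSO it was 0.19 (SE 0.111, edgeR adjusted p = 0.24). Osbpl11 was lower, at 76.6 to 80.5 CPM in dMye_PCN against 84.2 to 89.9 CPM in FF_PCN, again with no overlap (-0.20, SE 0.045, edgeR adjusted p = 0.0015), and at -0.10 under DMSO (edgeR adjusted p = 0.12). Npc1 was lower under PCN (-0.24, SE 0.065, edgeR adjusted p = 0.007) and at -0.15 under DMSO (SE 0.065, edgeR adjusted p = 0.12). Its libraries overlapped under both agents, and the call was lost without FF_PCN 2 (adjusted p = 0.056). The difference between the PCN effects was not called by edgeR for Osbp2, Osbpl11 or Npc1, so a call under 1 agent does not show that the genotypes differed more there.

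Osbpl9 sat at the threshold. It ranged from 196 to 218 CPM in dMye_PCN (median 205), against 214 to 227 CPM in FF_PCN, and from 195 to 222 CPM in dMye_DMSO (median 213), against 204 to 245 CPM in FF_DMSO. The groups overlapped under both agents. Its log2 fold changes were -0.16 under PCN (SE 0.055, edgeR adjusted p = 0.03, called) and -0.15 under DMSO (SE 0.055, edgeR adjusted p = 0.05, just above the threshold and not called). Under PCN the call was lost without FF_PCN 1 (0.096), FF_PCN 2 (0.11) or dMye_PCN 6 (0.063), and under DMSO it was gained in 10 of 18 fits that left out 1 library. The DMSO value was -0.25 without FF_DMSO 1 (edgeR adjusted p = 0.0029), the lowest of the FF_DMSO libraries, and -0.10 without FF_DMSO 2 (edgeR adjusted p = 0.30). About 9.04% of its exon bases overlap Nrd1 on the opposite strand. Osbp was at -0.08 under PCN (edgeR adjusted p = 0.27) and -0.13 under DMSO (edgeR adjusted p = 0.066), where it was called without dMye_DMSO 3 (0.022), dMye_DMSO 6 (0.024) or dMye_PCN 1 (0.049). Under PCN and DMSO, uncalled, Npc2 was at 0.09 and 0.12, Stard3 at -0.14 and 0.06, Osbpl3 at 0.11 and -0.10, and Gramd1a at 0.07 and 0.02. Under DMSO the Npc2 libraries did not overlap, at 1165 to 1385 CPM in dMye cells against 1102 to 1126 CPM in FF cells (edgeR adjusted p = 0.23).

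**Figure D4:**
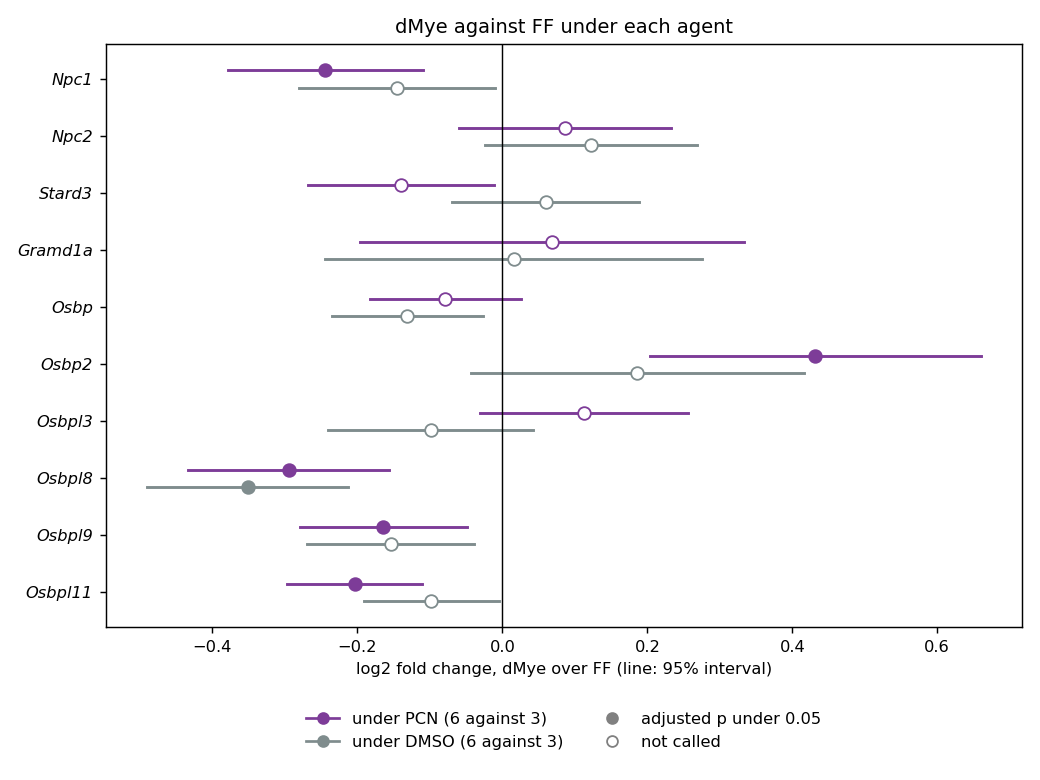
Log2 fold change of each gene for dMye over FF under PCN (purple) and DMSO (grey), 6 against 3 libraries each, with 95% intervals as lines and filled points for an adjusted p under 0.05. Osbpl8 is filled under both agents (-0.30 and -0.35), and Npc1, Osbp2, Osbpl9 and Osbpl11 under PCN.

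Npc1, Osbpl8 and Npc2 also followed a property of each whole library. For every library, a length index was computed: the median log2 deviation of genes whose longest transcript is at least 4.86 kb, minus that of genes up to 2.24 kb, over the 98.8% of tested genes with a length. The index ran from -0.253 to 0.179 in dMye_PCN, -0.477 to 0.0947 in dMye_DMSO, 0.0416 to 0.242 in FF_PCN and 0.0034 to 0.098 in FF_DMSO. The lowest values belonged to dMye_DMSO 5 (-0.477) and dMye_PCN 5 (-0.253), which also had the lowest Npc1 of their groups, 963 and 1192 CPM. The same 2 libraries had the highest Npc2 of their groups, 1385 and 1262 CPM, and the lowest Osbpl8, 868 and 1065 CPM. Their ratios of Npc1 to Npc2, 0.695 and 0.945, were the lowest of their groups. These 2 libraries also had the lowest Osbp (84.2 and 89.7 CPM), Osbpl3 (27.0 and 26.6 CPM) and Osbpl11 (71.3 and 76.6 CPM) of their groups. Osbp2 was lowest in dMye_PCN 5 (7.45 CPM) but not in dMye_DMSO 5 (6.96 CPM). Osbpl9, Stard3 and Gramd1a were at neither end of their groups in these libraries. Over the long genes of the index, the median log2 fold change of dMye against FF was -0.0933 under DMSO and -0.0747 under PCN. Over the short genes it was 0.119 under DMSO and 0.0718 under PCN.

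**Figure D5:**
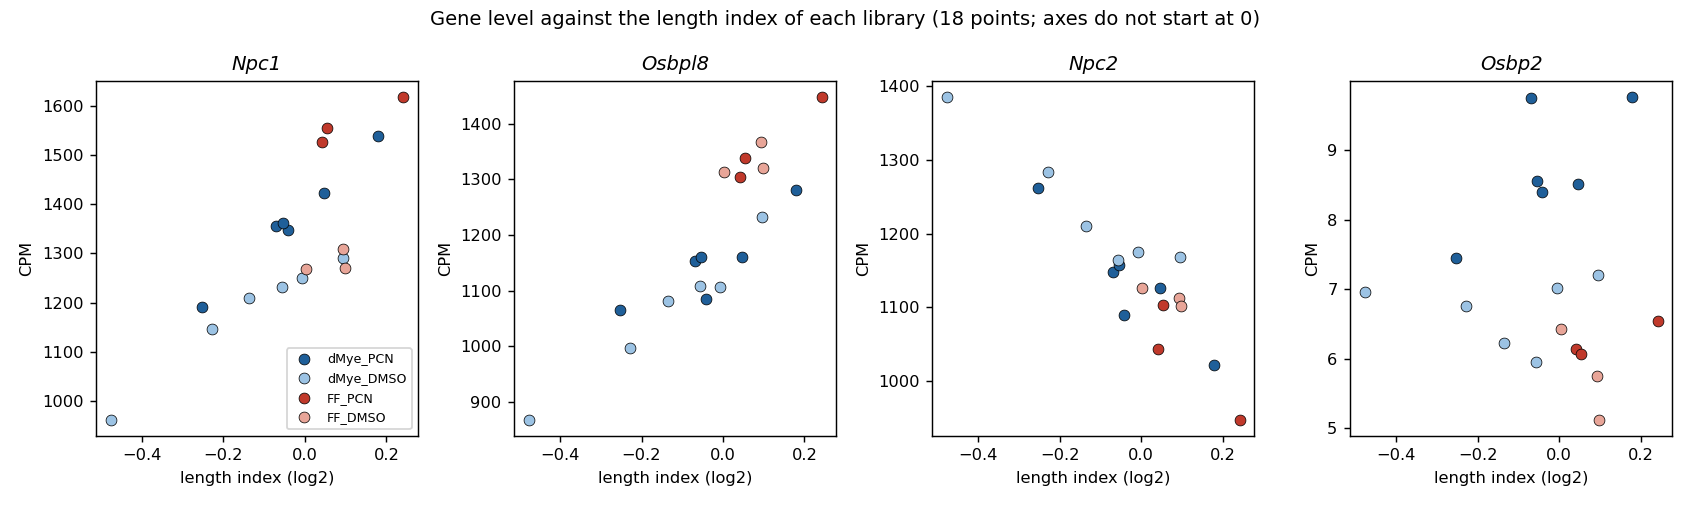
CPM of Npc1, Osbpl8, Npc2 and Osbp2 in each library against that library's length index (log2), coloured by group; the axes do not start at 0. Npc1 and Osbpl8 run upward and Npc2 downward with the index, from dMye_DMSO 5 at -0.477 to FF_PCN 2 at 0.242, while Osbp2 separates the dMye groups at every index.

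With the index as a covariate, an alternative chosen after seeing the data and built from the same counts, the Npc1 effect of PCN was 0.15 in dMye cells (edgeR adjusted p = 0.00043) and 0.28 in FF cells (edgeR adjusted p = 3.1e-07). Its difference between genotypes under DMSO, not called in the main fit, shrank to -0.02, and its call under PCN was kept. Osbpl8 stayed lower in dMye cells, with log2 fold changes of -0.20 under PCN and -0.23 under DMSO (edgeR adjusted p = 7.1e-06). Osbpl3 (-0.23, edgeR adjusted p = 0.026) and Stard3 (0.18, edgeR adjusted p = 0.023) were then called in FF cells. With this covariate, 713 genes in all were called for PCN in dMye cells in place of 279, and 3074 in FF cells in place of 1851. What makes the libraries differ in this index was not tested.

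Around the 10 genes, 45 others of the same pathways were listed, and 44 were tested. With PCN, 1 rose and 2 fell in dMye cells, and 5 rose and 7 fell in FF cells. These were 2.27% and 4.55% of the 44 in dMye cells, where 0.94% of all tested genes were called higher and 1.14% lower, and 11.4% and 15.9% in FF cells, where 6.82% were called higher and 6.98% lower. Their median log2 fold change was -0.0154 in dMye cells and -0.00277 in FF cells. Stard4, which encodes a soluble sterol carrier, fell in both genotypes: it averaged 5.06 ± 0.377 CPM in dMye_PCN and 8.35 ± 0.818 CPM in dMye_DMSO (log2 fold change -0.73, edgeR adjusted p = 0.00031), and 2.22 ± 0.500 CPM in FF_PCN and 5.26 ± 0.422 CPM in FF_DMSO (-1.22, edgeR adjusted p = 1.2e-05). Lipa, which encodes the acid lipase that frees cholesterol from its esters in lysosomes, also fell in both, at -0.21 in dMye cells (edgeR adjusted p = 0.0015) and -0.51 in FF cells (edgeR adjusted p = 2.7e-07). Pi4k2a, which encodes a kinase that makes PI4P, rose in both, by 0.13 in dMye cells (edgeR adjusted p = 0.046, lost in 17 of 18 fits without 1 library) and by 0.48 in FF cells (edgeR adjusted p = 6.7e-07). The sterol exporter gene Npc1 and the lysosomal lipase gene Lipa thus had called effects of opposite sign in each genotype. In dMye cells the Npc1 call was lost in 15 of 18 fits without 1 library, and the Lipa call held in all 18.

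In FF cells, where 6.82% of all tested genes were called higher and 6.98% lower, the VAP and PI4P list had 3 called members of 9, all higher: Pi4k2a, and Vapa (0.25, edgeR adjusted p = 0.0061) and Vapb (0.22, edgeR adjusted p = 0.0056), which encode the endoplasmic reticulum proteins that ORPs and STARD3 bind. Of the 10 lysosomal egress and membrane partners, 3 fell: Lipa, Anxa6 (-0.52, edgeR adjusted p = 1.8e-06) and Scarb2 (-0.23, edgeR adjusted p = 0.00025), which encodes the lysosomal membrane protein LIMP-2. Of 9 other START and GRAMD carriers, 2 fell, Stard4 and Stard5 (-0.28, edgeR adjusted p = 0.0018). Of 4 tested genes of sterol ester turnover, Soat1 (0.18, edgeR adjusted p = 0.023) and Soat2 (0.43, edgeR adjusted p = 0.0065), the cholesterol-esterifying enzymes, rose, and Lipe, a neutral ester hydrolase, fell (-0.29, edgeR adjusted p = 0.023). Of 6 genes of oxysterol synthesis and clearance, Cyp27a1, the mitochondrial sterol 27-hydroxylase, fell (-0.65, edgeR adjusted p = 0.00092). Of the 6 other ORP genes, 0 were called by edgeR. Of these FF calls, Soat1 was lost in 5, Lipe in 3 and Soat2 in 2 of the 18 fits without 1 library, and the other 9 held in all 18.

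Between genotypes, 8 of the 44 were higher and 6 lower in dMye cells under PCN, and 9 were higher and 4 lower under DMSO. Under PCN these were 18.2% and 13.6% of the 44, near the 16.2% and 11.4% of all tested genes. Under DMSO they were 20.5% and 9.09%, where 13.9% of all tested genes were called higher and 7.85% lower. Star, which brings cholesterol to the inner mitochondrial membrane, was higher under both agents, at 9.88 ± 1.32 CPM in dMye_PCN against 3.97 ± 0.181 CPM in FF_PCN (log2 fold change 1.27, edgeR adjusted p = 4.5e-08), and at 10.1 ± 1.08 CPM in dMye_DMSO against 4.58 ± 0.267 CPM in FF_DMSO (1.11, edgeR adjusted p = 2.6e-07). Osbpl5, which encodes ORP5, a close relative of ORP8, ran opposite to Osbpl8 in direction, but at a far lower level. It was higher under PCN (0.63, edgeR adjusted p = 0.0014) and DMSO (0.70, edgeR adjusted p = 0.00055). It averaged 6.33 CPM in dMye_PCN against 3.96 CPM in FF_PCN, and 6.62 CPM in dMye_DMSO against 4.00 CPM in FF_DMSO. Of the family's summed level per kb of merged exons, Osbpl5 held 0.458% and Osbpl8 56.6%. Stard4, Tmem97, Cyp27a1, Cyp7b1 and Ch25h were also higher under both agents. Ch25h had 0 counts in the 3 FF_PCN libraries, which allows up to 0.124 CPM in a library, and 0.129 to 0.579 CPM in dMye_PCN. Cyp7b1 was also near this limit in FF cells. It averaged 0.0791 CPM in FF_PCN against 1.10 CPM in dMye_PCN, and 0.113 CPM in FF_DMSO against 0.984 CPM in dMye_DMSO. Osbpl10, called under DMSO, averaged 0.0729 CPM in FF_DMSO (lowest value 0) against 0.636 CPM in dMye_DMSO. Nceh1, a cholesterol ester hydrolase of macrophages, and Pi4kb were lower under both. The other calls were Anxa6 (higher) and Vapa, Pi4k2a, Soat1 and Soat2 (lower) under PCN, and Osbpl10 and Tspo (higher) and Scarb2 and Lipa (lower) under DMSO. Some of these calls were lost in some of the 18 fits without 1 library. Under DMSO, Tspo was lost in 13, Cyp27a1 in 5, Tmem97 in 4, Scarb2 in 3, Ch25h in 2 and Pi4kb in 1. Under PCN, Tmem97 was lost in 3, Soat2 in 2 and Soat1 in 1. The Tspo call sat at the threshold (log2 fold change 0.358, edgeR adjusted p = 0.05). It was also lost without PCN libraries outside that comparison, at 0.339 without FF_PCN 1 and 0.358 without dMye_PCN 3.

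Finally, the genes whose levels were most like those of the most changed gene of each genotype were found by Pearson's r of log2 CPM over the 18 libraries, as a description. These CPM, unlike those printed, were TMM-scaled, with a prior count of 2. For Osbp2 the most alike genes were Vgll3 (r = 0.875), Fam171b (0.824) and Dlg2 (0.791), and with the 4 group means removed they included Vgll3 (0.830) and Cdh5 (0.783). Cdh5 was low, with group means of 0.185 CPM (dMye_PCN) to 0.454 CPM (FF_PCN). For Npc1 they were Tnpo1 (0.987), Chd1 (0.986) and Eea1 (0.985), and with group means removed Dnajc13 (0.976), Ap3d1 (0.974) and Sos1 (0.973). These genes were picked for the highest r among the 13409 tested, so their r are high by selection, and no p was computed. The points share library depth and the length index given above.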

How the data were processed

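The authors deposited 1 table of expected counts (estimated reads per gene, 51.2% of them with a fraction). Per the submitters' processing notes the build was mm10. Aligner, quantifier, annotation and strand setting: not given in the sources used here. Rounding gave whole numbers, filterByExpr kept 13409 of 21831 genes, and edgeR 4.0.16 under R 4.3.3 made 1 robust quasi-likelihood fit with TMM scaling to the 18 libraries in 4 groups, with no covariate. Its 5 contrasts used a Benjamini-Hochberg adjusted p under 0.05 over all genes; a standard error is the log2 fold change over the root of its F. CPM are rounded counts scaled to unadjusted library totals, and 1 CPM stands for 22 to 30.2 counts. Chi-square per gene between libraries of a group was at least 3.39, so none was merged as a repeat. Intervals and the floor of 3 counts cover counting and library error only. The 10 genes, the pathway and marker lists and the tests were chosen with earlier results of these data known. All 10 genes are named, and from each pathway list up to 4 called genes by smallest p in each comparison. Lengths and overlaps come from GENCODE M21 on GRCm38, promoter windows from RefSeq. The genetic alteration shared by all groups, and some single genes, are not reported here. The fit was tested on simulated data. Alternatives used DESeq2 1.42.0 and limma-voom (limma 3.58.1), other scalings and filters, unrounded counts, a test against a 1.2-fold change, the 2 groups compared alone and each library left out.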

Additional observations from a re-analysis of the deposited data

Results flagged for a closer look

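Osbp in dMye_PCN 5 stood at 89.7 CPM, apart from the other 5 libraries of its group. The gap to its nearest neighbour was 0.672 of the group's range, and it was the only one of 20 groups of 6 libraries to stand out in this way. Chance alone would set about 1 in 20 independent groups apart. The groups tested shared the same dMye libraries, so they were not independent and this rate cannot decide the matter. The gap also depended on the scale. In unscaled CPM the nearest library was dMye_PCN 1 at 96.98, and the highest was dMye_PCN 4 at 100.5. TMM-scaled, as in the fit, dMye_PCN 5 was still lowest at 89.69 CPM. There dMye_PCN 1 stood at 94.42 CPM and dMye_PCN 4 at 100.3 CPM, so the gap was narrower. Library dMye_PCN 5 also had the lowest length index of its group (-0.253). The cause was not tested.

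The PCN effect differed between genotypes, by edgeR's test of the difference itself (dMye minus FF), for 3 of the 44 tested pathway genes, 2 higher and 1 lower, where 0.746% of all tested genes were called higher and 0.671% lower. For Anxa6 the difference was 0.391 (edgeR adjusted p = 0.0062), for Lipa 0.305 (edgeR adjusted p = 0.011) and for Pi4k2a -0.348 (edgeR adjusted p = 0.0039). In each, the effect in dMye cells was the smaller, and all 3 calls held with each of the 18 libraries left out in turn. In the test against a 1.2-fold change, 0 of the 3 were called.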

How the results depend on the processing

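No paired analysis was possible because the labels give no replicate numbers that groups share. Over 30 alternatives, the 9 called values of the 10 genes kept sign in all 264 refits and lost the call in 39, of which 9 came from the test against a 1.2-fold change, under which 0 of the 10 were called in any contrast. Of the 45 called values of the other pathway genes, 1209 of 1315 refits kept the call and 0 changed sign.

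Among the 10 genes, calls for PCN in dMye were 1 with upper-quartile scaling, with only the 2 groups compared and without dMye_DMSO 5 and 6 (Osbp2 in each), and 0 to 2 with 1 library left out. For PCN in FF they were 2 with upper-quartile scaling, with DESeq2 and without dMye_DMSO 5 and dMye_PCN 5, 3 with the length index as covariate, and 0 to 2 with 1 library left out. For dMye against FF under DMSO they were 3 with RLE scaling, 2 with no filter, with 1 CPM in 6 libraries and without dMye_DMSO 5 and 6, 4 with DESeq2 and without dMye_DMSO 5 and dMye_PCN 5, and 1 to 3 with 1 library left out. Signs changed for uncalled effects near 0. For PCN in FF, Osbp was -0.023 with upper-quartile scaling, -0.0080 with no filter, -0.0039 with only the 2 groups, -0.00044 without dMye_DMSO 5 and 6 and -0.00048 without dMye_DMSO 5 and dMye_PCN 5. With 1 library left out Osbp ran from -0.020 to 0.031, Osbpl8 from -0.00045 to 0.076 and Osbpl9 from -0.11 to 0.028. For PCN in dMye, Osbpl3 was 0.014 without dMye_DMSO 5 and dMye_PCN 5 and ran from -0.035 to 0.019 with 1 library left out. The cause was not tested.

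Counts over all genes moved as follows. For PCN in dMye (279) they were 584 with DESeq2, 144 with only the 2 groups, 179 without dMye_DMSO 5 and 6, 713 with the covariate and 8 against a 1.2-fold change, and 137 to 371 with 1 library left out. For PCN in FF (1851) they were 3074 with the covariate, 315 against a 1.2-fold change and 1202 to 2175 with 1 library left out. For the difference between the PCN effects (190) they were 426 with DESeq2, 353 without dMye_DMSO 5 and dMye_PCN 5, 729 with the covariate and 8 against a 1.2-fold change, and 42 (without FF_DMSO 1) to 261 (without dMye_DMSO 5) with 1 library left out. Among the 44 pathway genes, calls for PCN in dMye (3) were 7 with DESeq2 and 6 with the covariate, and for the difference (3) they were 5 with each of these. Against a 1.2-fold change, pathway calls fell to 1 for PCN in dMye, to 5 from 12 for PCN in FF and to 0 for the difference. For dMye against FF they fell to 7 from 14 under PCN and to 6 from 13 under DMSO. Upper-quartile scaling lowered the share of calls that were higher to 31.2% in dMye and 38.2% in FF for PCN, against 45.2% and 49.4%. It raised that share for dMye against FF to 74.8% under PCN and 76.0% under DMSO, against 58.8% and 64.0%. Its shift of the median over all genes was under 0.1 on the log2 scale in every contrast.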
